A study of Mus musculus with 8 samples.

Results

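The genes described here form the nutrient-sensing machinery on the lysosome: the proton pump V-ATPase, the Ragulator scaffold, the Rag GTPases, the folliculin complex, the MiT/TFE transcription factors TFEB, TFE3 and MITF, the core of the kinase complex mTORC1 with RHEB and the arginine sensor SLC38A9, and the lysosomal glycoprotein GPNMB. They were chosen by name, for what their proteins do, with earlier results of these data known. They number 37 of the 55357 genes in the deposited table. All 37 passed the filter on low counts, as did 14514 genes in all. Bone marrow-derived macrophages (BMDM) were grown from marrow of wild-type C57BL/6J mice with M-CSF for 5 to 6 days. The So(d18:1) group received 2 μM sphingosine in methanol for 6 h and the Control group methanol alone for the same time, with 4 libraries of poly(A) RNA in each group. The labels name no other stimulus, whereas the study describes an inflammatory stimulus given to both groups, and which it was is not given in the sources used here. The study calls the samples biologically independent, but no source says whether they came from separate mice or separate dishes of 1 culture, and the p-values measure only the spread between these libraries.

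The V-ATPase joins a ring in the lysosomal membrane, the V0 sector, to a soluble ATP-splitting head, the V1 sector, and pumps protons inwards so that lysosomal enzymes can work. The pump also binds the Ragulator (LAMTOR1 to LAMTOR5) at the membrane. There Ragulator anchors a pair of Rag GTPases, A or B with C or D, that recruits mTORC1 when amino acids are plentiful. Folliculin, with its partner FNIP1 or FNIP2, switches RagC and RagD into the state in which mTORC1 phosphorylates TFEB and TFE3 and keeps them out of the nucleus. Once released, these factors drive lysosomal genes through a short promoter word called the CLEAR element, and Rragd, Flcn, Gpnmb and many V-ATPase subunit genes are known targets of the family. Macrophages, which digest what they engulf, carry many lysosomes. Phosphorylation and location of these proteins were not measured here, only the mRNA.

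Of the 37 members, 10 differed between the groups, 8 lower and 2 higher in So(d18:1). The genes that fell sat mostly in the Rag, folliculin and MiT/TFE layer: Rragc, Rragd, Flcn, Fnip2 and Mitf. Of the V-ATPase genes, Atp6v0a1, Atp6v0d2 and Atp6v1c1 fell, and the other 14 subunit and accessory genes, which did not pass the test, differed from Control by -7.89% to 4.21%. Lamtor4 and Gpnmb rose. The changes were small: the widest was Rragd, whose log2 fold change was -0.75, and the other 9 lay between -0.42 and 0.31.

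These calls are members with an adjusted p under 0.05 by edgeR's quasi-likelihood test with Benjamini-Hochberg adjustment over all 14514 genes, and all fold changes are So(d18:1) relative to Control on the log2 scale with their standard error (SE). They make up 27.0% of the members, against 8.94% of all tested genes (1298). By direction, 8 of 37 fell against 5.07% of all genes, and 2 of 37 rose against 3.87%. The members were measured more precisely than most genes, with a median SE of 0.0492 against 0.0868 over all tested genes, so a smaller change could be called in them. Their median log2 fold change was -0.042 and that of all genes 0.004. By the threshold in the study's methods, an unadjusted p under 0.05 with a fold change of at least 1.5, Rragd was the 1 member called, against 3.89% of all genes, and no member reached a fold change of 2.

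**Figure D1:**
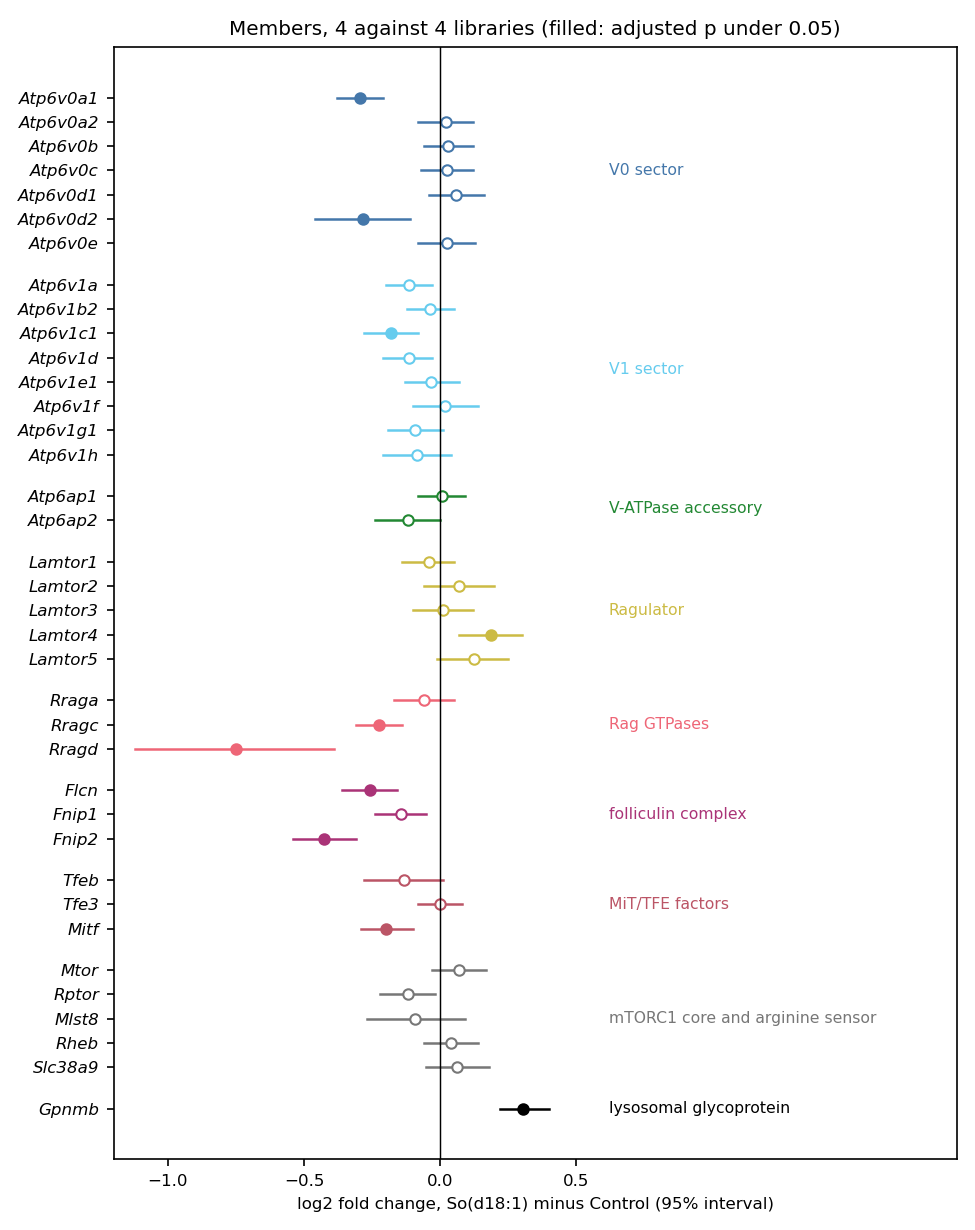
Log2 fold change of each of the 37 members (x axis, So(d18:1) minus Control) with its 95% interval, grouped and coloured by role; filled points have an adjusted p under 0.05. The 3 Rag GTPases, 3 folliculin complex genes and 3 MiT/TFE factors all lie at or left of 0, with Rragd farthest at -0.75 and Tfe3 at -0.00 (positive under 2 other processing settings), while Gpnmb lies at 0.31.

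In 13 of the 37 genes the 4 So(d18:1) libraries did not overlap with the 4 Control libraries in CPM (library counts scaled to a common total), 11 of them lower and 2 higher. Over all tested genes, 15.0% had no overlap. The 13 were the 10 called members and Atp6v1a, Atp6v1d and Fnip1. Counts behind the members were high, with at least 100 in every library for 36 of them; the lowest was 55, for Rragd. Between the 4 libraries of a group the coefficient of variation of a member had a median of 4.47% in Control and 4.1% in So(d18:1).

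Total counts lay between 17748397 and 26088609 per library. The macrophage markers were abundant, with Csf1r at 6234 and Adgre1 at 2213 CPM in Control. Their summed level over 6 genes was 29680 to 32014 CPM in Control against 25506 to 30385 CPM in So(d18:1). Most of that sum was Lyz2, at 20723 CPM in Control and not called. Cd68 and Mertk, at 763 and 210 CPM in Control, were called lower. Neutrophil markers were present at a summed 827 to 1127 CPM in Control against 637 to 718 CPM in So(d18:1), and 4 of 6 were called lower. Of 4 monocyte markers 2 were called lower, with sums of 1174 to 1488 and 1113 to 1233 CPM. Most of that sum was Ccr2, at 1276 CPM in Control and not called, whereas the called Ly6c2 and Plac8 stood at 27.1 and 14.6 CPM. Of 5 lymphocyte markers 1, Nkg7, was called lower, at sums of 3.26 to 6.11 and 2.35 to 2.97 CPM. Dendritic cell and stromal markers each summed to at most 7.51 CPM in any library, erythroid markers to at most 1.09 CPM, and mast cell markers to at most 0.469 CPM, with Tpsb2 at 0. The part of these shifts in the members' changes was not tested, and in bulk RNA fewer cells of a type and less RNA per cell cannot be told apart.

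Because TFEB and its relatives act through the CLEAR element, the sequence around the start site of each member was searched for it. RefSeq promoter windows on GRCm38.p6, from 250 bases before to 50 bases after a start, were found for 30 of the 37 members. The CLEAR core TCACGTGA was present in 3 of the 30, Atp6v0d1, Atp6v0e and Atp6v1a, against 1.12% of 27025 genes with a window. The shorter E-box CACGTG, which the CLEAR core contains, was present in 9 of the 30 against 8.09% of genes. The M-box TCATGTG, the other word bound by MITF, was present in Atp6v0c, Lamtor1 and Lamtor2, against 4.31% of genes. The first 2 words read the same on both strands and the third was searched on both. The 6 stretches of 80 bases below, each 5′ to 3′ on the strand of its gene, show the 3 CLEAR cores and the E-boxes of the 3 members with an E-box alone whose groups did not overlap, with the word in capitals:
Atp6v0d1, chr8:105566025-105566104, minus strand: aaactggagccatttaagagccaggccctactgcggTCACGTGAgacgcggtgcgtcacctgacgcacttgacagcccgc
Atp6v0e, chr17:26676362-26676441, plus strand: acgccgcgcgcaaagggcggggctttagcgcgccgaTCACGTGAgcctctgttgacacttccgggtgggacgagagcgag
Atp6v1a, chr16:44139348-44139427, minus strand: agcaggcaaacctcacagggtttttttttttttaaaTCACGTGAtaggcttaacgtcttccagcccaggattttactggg
Rragc, chr4:123917284-123917363, plus strand: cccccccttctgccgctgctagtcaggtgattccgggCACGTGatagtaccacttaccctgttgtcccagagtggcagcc
Fnip1, chr11:54438067-54438146, plus strand: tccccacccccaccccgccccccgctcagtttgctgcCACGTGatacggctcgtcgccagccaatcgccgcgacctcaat
Lamtor4, chr5:138255325-138255404, plus strand: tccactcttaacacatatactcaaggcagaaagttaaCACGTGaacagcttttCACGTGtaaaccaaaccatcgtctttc

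In Atp6v0d1 the word began 4 bases before the start, in Atp6v0e 2 bases after it and in Atp6v1a 132 bases before it. The first E-box of Rragc began 112 bases before the start, that of Fnip1 75 bases before it, and that of Lamtor4 120 bases before it with another inside the same stretch. Of the 8 called members with a window, 2 held an E-box, Rragc lower and Lamtor4 higher, and none held a CLEAR core or an M-box. Of the 22 members with a window that were not called, 7 held an E-box and 3 a CLEAR core. A word in a window is a description of the sequence and not of binding.

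The Rag GTPases are the switch of the pathway, and both C-type members fell while Rraga did not pass the test. Rragc (RagC; chromosome 4, 123917446 to 123936997, plus strand) stood at 212, 211, 210 and 218 CPM in Control 1 to 4 and at 178, 183, 187 and 181 CPM in So(d18:1) 1 to 4. All 4 treated libraries lay below all 4 controls, and the groups were far apart relative to their spread. The log2 fold change was -0.22 (SE 0.0399, adjusted p = 0.000865). Of its 50-base words, 6.749% are also found in other annotated genes, so a small share of its reads could be assigned elsewhere. Its promoter stretch is among those printed above.

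Rragd (RagD; chromosome 4, 32983037 to 33022180, plus strand), the partner that TFEB itself is known to induce, was the scarcest member, at 4.62, 4.58, 6.79 and 5.90 CPM in Control against 4.43, 2.49, 3.02 and 3.18 CPM in So(d18:1). So(d18:1) 1 came close to the lower controls, and the other 3 treated libraries lay well below them. Its log2 fold change was -0.75 (SE 0.176, adjusted p = 0.00948, 95% interval -1.12 to -0.39), the widest interval of the 37. Per length, RagD supplied 1.63% ± 0.314 (SD, n = 4) of the summed C and D level in Control and 1.15% ± 0.307 in So(d18:1), so RagC made up nearly all of it in both groups.

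Rraga, the single-exon gene of RagA, stood at 45.6 ± 1.43 CPM (SD, n = 4) in Control against 43.8 ± 1.22 CPM in So(d18:1). Its log2 fold change was -0.06 (SE 0.0519, adjusted p = 0.542), with a 95% interval of -0.17 to 0.05. Rragb, its near relative and not a member, was close to absent at 0.752 CPM in Control.

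The folliculin complex acts on RagC and RagD, and all 3 of its genes were lower in every treated library than in any control. Flcn (folliculin; chromosome 11, 59791408 to 59810016, minus strand) stood at 159, 158, 164 and 165 CPM in Control against 140, 140, 138 and 122 CPM in So(d18:1). One treated library, So(d18:1) 4, was lower than its 3 fellows. The log2 fold change was -0.26 (SE 0.0477, adjusted p = 0.00124).

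Fnip2 (chromosome 3, 79455974 to 79567796, minus strand), which encodes one of the interchangeable partners of folliculin, had the smallest adjusted p of the members. It stood at 170, 167, 201 and 190 CPM in Control against 134, 140, 140 and 129 CPM in So(d18:1), a drop of 25.5% (log2 fold change -0.42, SE 0.0551, adjusted p = 3.5e-05). Controls 3 and 4 were above Controls 1 and 2, and every treated library was below all of them.

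Fnip1 (chromosome 11, 54438199 to 54518235, plus strand), the other partner, stood at 191, 197, 182 and 183 CPM in Control against 166, 179, 174 and 162 CPM in So(d18:1). Its groups did not overlap either, but the log2 fold change of -0.14 (SE 0.0449) just missed the threshold with an adjusted p of 0.0513. It passed without Control 3 (adjusted p = 0.0465). Fnip2 accounted for 44.2% ± 3.11 of the summed Fnip1 and Fnip2 level per length in Control and 39.5% ± 0.331 in So(d18:1). The ranges of this share, 41.0% to 47.6% and 39.0% to 39.7%, did not overlap, and the share was not tested.

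**Figure D2:**
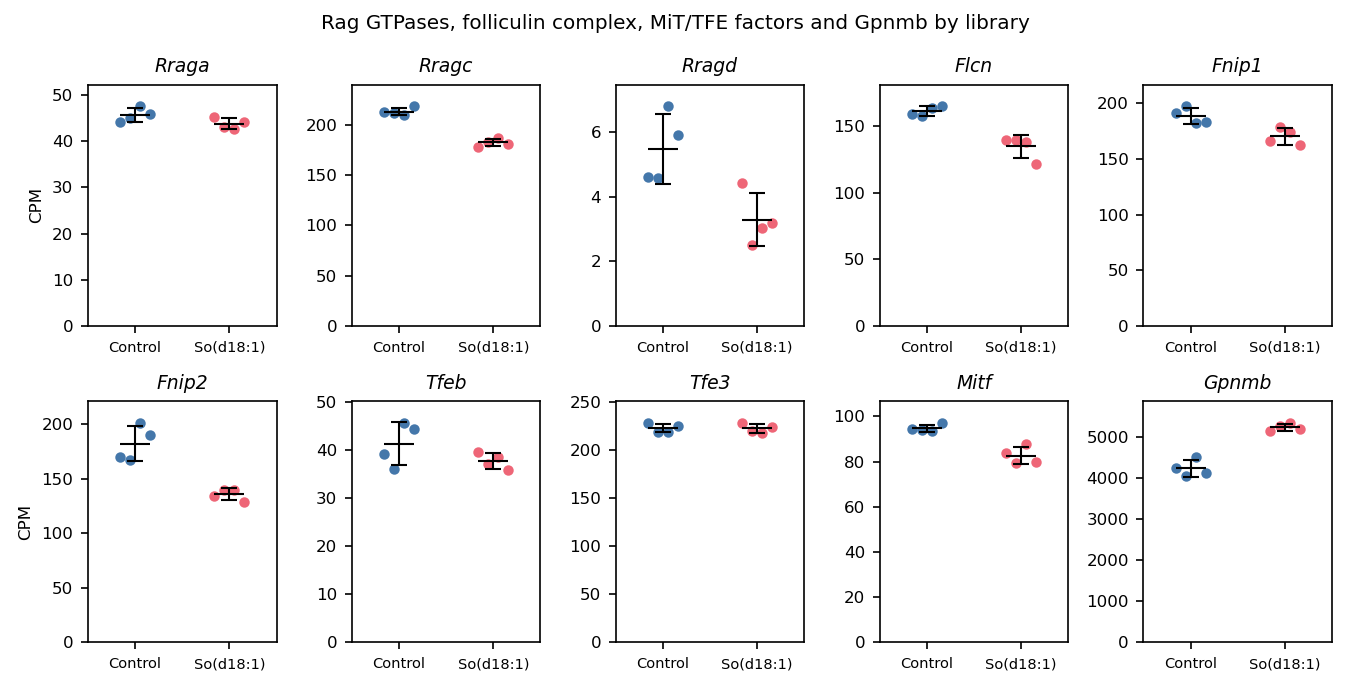
CPM in each library (points) with the mean and SD of 4 libraries (black bars) for the Rag GTPases, the folliculin complex, the MiT/TFE factors and Gpnmb, each y axis starting at 0. Rragc, Rragd, Flcn, Fnip1, Fnip2 and Mitf were lower in every So(d18:1) library than in any Control library, Gpnmb was higher in every one, and Rraga, Tfeb and Tfe3 overlapped.

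Among the MiT/TFE factors Mitf fell, and Tfeb and Tfe3 did not pass the test. Mitf (chromosome 6, 97807052 to 98021349, plus strand), the family member best known from pigment cells and osteoclasts, stood at 94.5, 94.1, 93.7 and 97.1 CPM in Control. In So(d18:1) it stood at 83.7, 79.4, 87.8 and 79.8 CPM, with no overlap (log2 fold change -0.20, SE 0.0457, adjusted p = 0.00795). The controls spanned a narrow range and the treated libraries a wider one.

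Tfeb (chromosome 17, 47737030 to 47792419, plus strand) encodes one of the factors that drive lysosomal genes. It stood at 39.1, 36.0, 45.6 and 44.4 CPM in Control against 39.5, 37.1, 38.6 and 35.8 CPM in So(d18:1). Controls 3 and 4 were above every treated library, whereas Controls 1 and 2 lay among them, and the log2 fold change of -0.13 (SE 0.0696) had an adjusted p of 0.264 and a 95% interval of -0.28 to 0.01. Tfe3 (X chromosome, 7762560 to 7775202, plus strand) stood at 228, 219, 219 and 225 CPM in Control against 228, 220, 218 and 224 CPM in So(d18:1). Its log2 fold change was -0.00 (SE 0.0399, adjusted p = 0.986), with a 95% interval of -0.08 to 0.08.

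Per length, Tfe3 was the most abundant of the family in these macrophages, at 24.1 ± 0.478 CPM per kb in Control, before Mitf at 15.3 ± 0.249 and Tfeb at 7.28 ± 0.794. These levels rest on the union of exons, 6196 bases for Mitf and 5669 for Tfeb. Their longest transcripts have 4881 and 2342 bases, so the gap between Mitf and Tfeb, and the shares below, depend on the length chosen. Taking in Tfec, the fourth family member, which is known for its expression in macrophages, Tfe3 made up 44.8% ± 0.478 of the summed level in Control and 46.7% ± 0.895 in So(d18:1), and Tfec 13.2% ± 1.16 and 14.5% ± 0.710. The share of Mitf was 28.5% ± 0.301 in Control and 25.9% ± 0.998 in So(d18:1), without overlap, and that of Tfeb 13.5% ± 1.43 and 12.9% ± 0.415. Over the Rag GTPases, folliculin complex and MiT/TFE factors together, 9 of 9 log2 fold changes were below 0 with a median of -0.200, and 5 were called, all lower. Over all 14514 tested genes 7127 were below 0, the median was 0.004 and 736 (5.07%) were called lower. These 3 layers were joined with their values known, so the count is a description. The sign of Tfe3 is not settled, since it turned positive, to 0.0048, when libraries were scaled by their totals alone.

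Gpnmb (chromosome 6, 49036546 to 49070929, plus strand), a transmembrane glycoprotein of lysosomes and phagosomes that MITF and TFE3 are known to drive, moved the other way. It stood at 4248, 4050, 4509 and 4132 CPM in Control against 5143, 5272, 5343 and 5189 CPM in So(d18:1). Every treated library was above every control by more than the range within either group, and the log2 fold change was 0.31 (SE 0.0436, adjusted p = 7.7e-05), a rise of 23.7%. At 650 ± 30.7 CPM per kb it was also the most abundant member, 615 times Rragd in Control.

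In the V0 sector, which forms the proton path through the membrane, 2 of 7 genes (28.6%) fell, against 5.07% of all tested genes. The log2 fold changes of the other 5, which did not pass, lay between 0.02 and 0.06. Atp6v0a1 (chromosome 11, 101009452 to 101063719, plus strand) encodes one of the alternative a subunits, the part that guides protons across the membrane and helps to decide where the pump goes. It stood at 175, 165, 169 and 166 CPM in Control against 142, 139, 134 and 136 CPM in So(d18:1), a drop of 18.5% (log2 fold change -0.30, SE 0.0414, adjusted p = 6.8e-05). The lowest control was above the highest treated library by several times the spread within the treated group.

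The other a subunits did not pass the test. Atp6v0a2, the form typical of the Golgi and endosomes, stood at 51.5 ± 0.575 and 52.2 ± 0.630 CPM (log2 fold change 0.02, SE 0.0477, adjusted p = 0.846). Tcirg1, which encodes the a3 subunit of lysosomes and osteoclasts and is not among the 37, stood at 591 ± 30.4 and 585 ± 47.9 CPM (log2 fold change -0.02, SE 0.0545, adjusted p = 0.906). In Tcirg1 the treated libraries spanned 523 to 639 CPM, so its own spread is wider than the difference. Per length, Tcirg1 supplied 79.3% ± 0.742 of the summed a subunit level in Control, Atp6v0a1 15.9% ± 0.595 and Atp6v0a2 4.74% ± 0.169. In So(d18:1) the share of Atp6v0a1 was 13.5% ± 0.746, with its highest library at 14.6% and the lowest control at 15.3%, and that of Tcirg1 was 81.5% ± 1.09. These shares were not tested.

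Atp6v0d2 (chromosome 4, 19876841 to 19922605, minus strand) encodes the d2 form of the stalk-bearing d subunit, known from osteoclasts and macrophages, and Atp6v0d1 the ubiquitous form. Atp6v0d2 stood at 41.0, 37.1, 48.8 and 38.5 CPM in Control against 35.0, 34.2, 29.9 and 36.5 CPM in So(d18:1). The groups were separated by less than 1 CPM, with Control 3 well above the rest. Its log2 fold change was -0.28 (SE 0.0820, adjusted p = 0.0398), and the call was lost without Control 1 or 3 or So(d18:1) 1, 2 or 3, where the adjusted p was 0.0735 to 0.111, and under limma-voom (0.0504).

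Atp6v0d1 stood at 125 ± 7.70 CPM in Control against 130 ± 5.81 CPM in So(d18:1), a log2 fold change of 0.06 (SE 0.0497, adjusted p = 0.516). The d2 form supplied 17.9% ± 1.34 of the d subunit level per length in Control and 14.7% ± 1.18 in So(d18:1), again without overlap and without a test. Osteoclast markers, which share this gene's known setting, summed to 80.6 to 92.7 CPM in Control against 74.3 to 86.9 CPM in So(d18:1). Most of that sum was Mmp9, a matrix metalloproteinase, at 64.8 ± 2.79 CPM in Control (log2 fold change -0.10, adjusted p = 0.292). By edgeR 0 of 4 tested osteoclast markers were called, with 2 at an unadjusted p under 0.05 and 1 called by DESeq2, and Calcr, Ocstamp and Oscar were under 1 CPM. The 2 were Acp5, the tartrate-resistant acid phosphatase (log2 fold change -0.31, adjusted p = 0.0510), and Ctsk, the collagen-degrading cathepsin K (log2 fold change -0.42, adjusted p = 0.0749), both with lower means in So(d18:1), by as much as or more than Atp6v0d2, and with ranges that overlapped between the groups. The remaining tested marker, Dcstamp, was scarce (Control mean 1.16 CPM). Its log2 fold change lay on the other side of 0 (0.07, SE 0.275, adjusted p = 0.920). The part of these osteoclast markers in the change of Atp6v0d2 was not tested.

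The remaining V0 genes were Atp6v0b and Atp6v0c, which encode the rotating proteolipid ring, and Atp6v0e, a small membrane subunit. Their log2 fold changes were 0.03, 0.02 and 0.03, with 95% intervals that together run from -0.08 to 0.13, and none passed. Atp6v0c shares 10.76% of its 50-base words with other loci, chiefly its own pseudogenes, and Atp6v0b overlaps an antisense gene over 243 bases, so their counts are less certain.

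In the V1 sector, which splits ATP, 1 of 8 genes (12.5%) fell, against 5.07% of all tested genes. Of the 8 log2 fold changes 7 were below 0 with a median of -0.089, against 7127 of 14514 genes and a median of 0.004. Atp6v1c1 (chromosome 15, 38661933 to 38692446, plus strand) encodes the C subunit, which clamps the head to the membrane ring and leaves when the pump is taken apart. It stood at 113, 114, 132 and 122 CPM in Control against 108, 108, 107 and 104 CPM in So(d18:1). The treated libraries were tightly grouped just below the lower controls (log2 fold change -0.18, SE 0.0496, adjusted p = 0.0272). The call was lost without Control 3 or 4 or any 1 of the 4 So(d18:1) libraries, with adjusted p from 0.0541 to 0.107.

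Atp6v1a, the catalytic A subunit, stood at 426, 431, 434 and 423 CPM in Control against 382, 409, 383 and 407 CPM in So(d18:1), without overlap. Its log2 fold change of -0.12 (SE 0.0410) had an adjusted p of 0.0851. Atp6v1d, part of the central shaft, stood at 91.7, 93.4, 96.8 and 96.3 CPM in Control against 89.4, 87.3, 85.3 and 87.0 CPM in So(d18:1), again without overlap (log2 fold change -0.12, SE 0.0431, adjusted p = 0.101). Neither passed the threshold, at changes of -7.73% and -7.74%.

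The other V1 genes overlapped between the groups. The log2 fold change was -0.04 for Atp6v1b2 (the B subunit), -0.03 for Atp6v1e1 and -0.09 for Atp6v1g1 (the peripheral stalk), 0.02 for Atp6v1f (the shaft) and -0.09 for Atp6v1h (a regulator of ATP splitting), with adjusted p of 0.245 to 0.886. Atp6v1g1 and Atp6v1f share 19.15% and 11.23% of their 50-base words with other loci. The accessory proteins Atp6ap1, needed for assembly of the pump, and Atp6ap2, also called the prorenin receptor, had log2 fold changes of 0.01 (adjusted p = 0.951) and -0.12 (adjusted p = 0.221). Over all 17 V-ATPase genes 3 (17.6%) were called, against 8.94% of all tested genes, and the 95% intervals of the other 14 lay within -0.24 to 0.16.

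**Figure D3:**
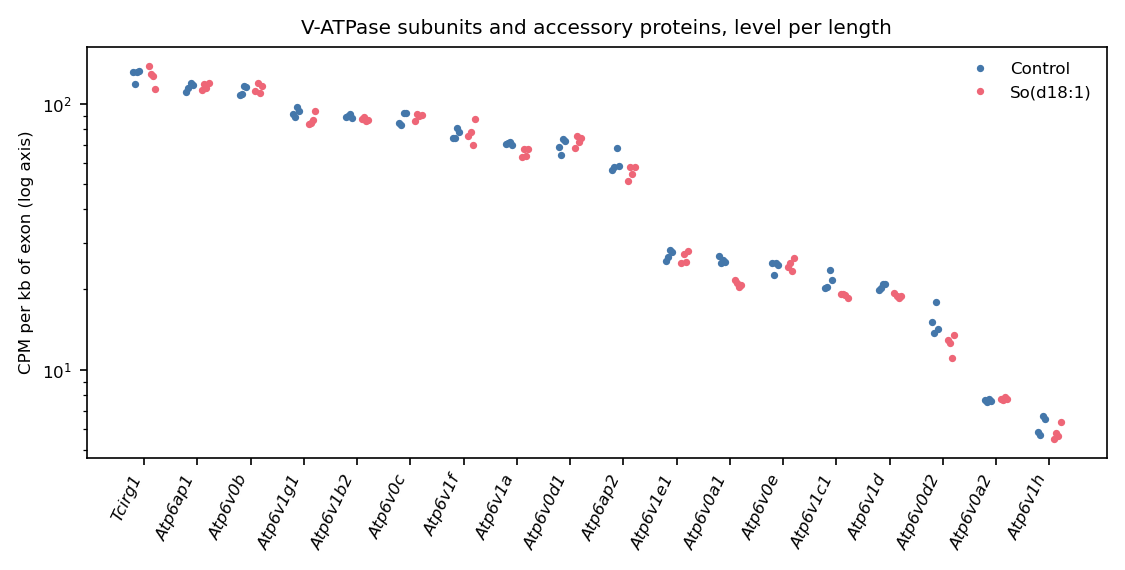
Level per length (CPM per kb of exon, log axis) of the 17 V-ATPase members and Tcirg1 in each Control and So(d18:1) library, ordered by the Control mean. Tcirg1 is highest at 128 and Atp6v1h lowest at 6.17 CPM per kb in Control, and Atp6v0a1, Atp6v0d2, Atp6v1a, Atp6v1c1 and Atp6v1d show So(d18:1) points wholly below the Control points.

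The subunits of the pump were not expressed evenly. Per length, Atp6ap1 (115 ± 3.89 CPM per kb in Control) and Atp6v0b (112 ± 4.38) led the members, and their ranges overlapped with each other. Then came Atp6v1g1 (92.9 ± 3.43), Atp6v1b2 (89.6, range 88.2 to 91.7) and Atp6v0c (88.1 ± 5.04), which overlapped as neighbours, Atp6v1f alone at 76.7 ± 3.21, and the overlapping Atp6v1a (70.9 ± 0.791), Atp6v0d1 (69.6 ± 4.29) and Atp6ap2 (60.0 ± 5.42). Below a gap, Atp6v1e1, Atp6v0a1, Atp6v0e, Atp6v1c1 and Atp6v1d followed, from 27.0 down to 20.6 CPM per kb. Atp6v0d2 (15.2 ± 1.91), Atp6v0a2 (7.66 ± 0.0855) and Atp6v1h (6.17 ± 0.506) were lowest. The order rests on the deposited gene length, the union of exons: by the longest transcript Atp6v0b came first at 229 CPM per kb and Atp6v1g1 moved from place 3 to place 7 of the 17.

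**Figure D4:**
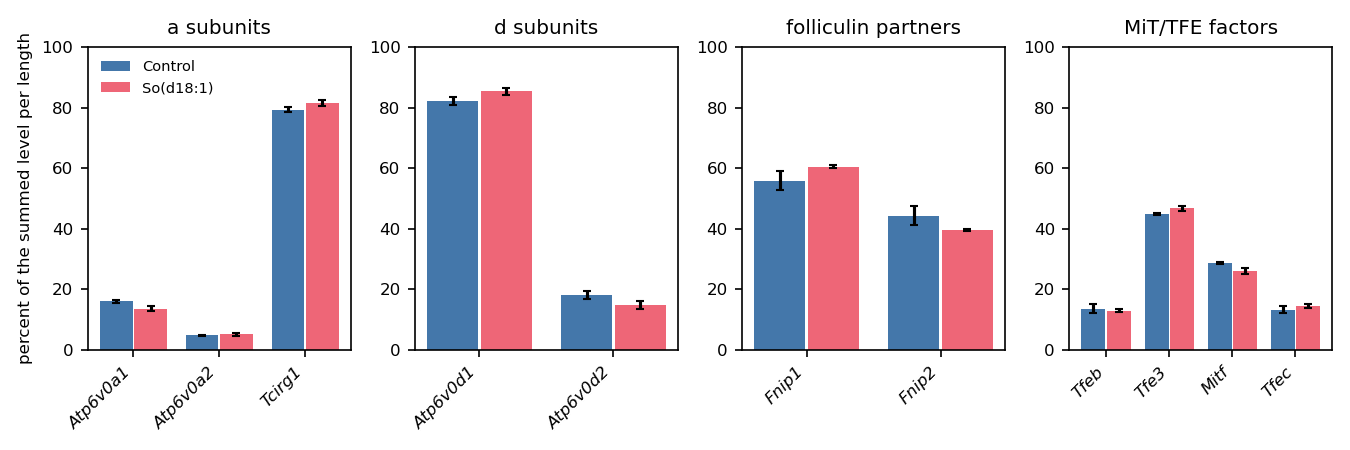
Share (percent, mean with SD over 4 libraries) of each alternative gene in the summed CPM per kb of its kind, for the a subunits, the d subunits, the folliculin partners and the MiT/TFE factors. The shares of Atp6v0a1, Atp6v0d2, Fnip2 and Mitf were 15.9%, 17.9%, 44.2% and 28.5% in Control and 13.5%, 14.7%, 39.5% and 25.9% in So(d18:1).

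Of the 5 Ragulator genes, Lamtor4 rose and 4 did not pass, and the median log2 fold change was 0.070. Lamtor4 (chromosome 5, 138255482 to 138259398, plus strand), a roadblock-fold subunit, stood at 41.5, 37.7, 42.2 and 42.4 CPM in Control against 46.3, 47.1, 44.1 and 48.6 CPM in So(d18:1). All treated libraries were above all controls (log2 fold change 0.19, SE 0.0565, adjusted p = 0.0432). The call was lost without any single library except So(d18:1) 3, with adjusted p from 0.0502 to 0.124, and with upper-quartile scaling (adjusted p = 0.0577).

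Lamtor5, its partner in the complex, had a log2 fold change of 0.12 (SE 0.0623, adjusted p = 0.241), from 43.5 ± 2.43 CPM in Control to 47.3 ± 3.83 CPM in So(d18:1), and shares 14.49% of its 50-base words with other loci. Lamtor1, the lipid-anchored subunit that wraps the others, and Lamtor2 and Lamtor3, its other roadblock pair, had log2 fold changes of -0.04, 0.07 and 0.01 with adjusted p of 0.545 to 0.937. Lamtor1 overlaps Lrrc51 on the opposite strand over 600 bases. Per length in Control, the 5 genes ranged from 14.2 CPM per kb for Lamtor3 to 49.2 CPM per kb for Lamtor5.

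Of the 5 genes of the mTORC1 core, Rheb and Slc38a9, edgeR called 0, as did DESeq2 and limma-voom. By edgeR 1 of the 5, Rptor, had an unadjusted p under 0.05, beside 3393 of all 14514 tested genes. Mtor, the kinase (chromosome 4, 148448611 to 148557683, plus strand), stood at 73.2, 70.3, 65.9 and 69.5 CPM in Control against 76.4, 69.5, 73.6 and 73.5 CPM in So(d18:1). The groups overlapped, and the log2 fold change was 0.07 (SE 0.0490, adjusted p = 0.421, 95% interval -0.03 to 0.17). Rptor, which recognises substrates, had the largest log2 fold change of the 5 in size, -0.12 (SE 0.0492, adjusted p = 0.146), with treated libraries at 63.4 to 68.8 CPM and controls at 67.4 to 75.2 CPM. Mlst8, a small kinase partner, had a log2 fold change of -0.09, Rheb, the GTPase that activates mTORC1, of 0.04, and Slc38a9, which reports lysosomal arginine, of 0.06, with adjusted p of 0.516 to 0.683. Mlst8 overlaps Bricd5 on the opposite strand over 997 bases.

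The 103 other genes of the pathway were listed for their known roles, also with earlier results of these data known. Of these, 96 were tested and 10 (10.4%) were called, 3 higher and 7 lower, beside 8.94% of all genes. With upper-quartile scaling 14 were called, 1 higher and 13 lower. The number of all genes called under that scaling is not given here, so these 14 cannot be set against a background. DESeq2 called 16, 4 higher and 12 lower, beside 1495 of all genes passing the same filter. With no filter on low counts edgeR called 16, 6 higher and 10 lower, beside 1723 of all genes. That run also tested genes that the filter removes, and their number is not given here, so its counts cannot be read as shares. Of the 10, 3 were among the 9 genes for assembly and regulation of the V-ATPase (33.3%, beside 8.94% of all genes). Dmxl1 and Dmxl2 encode the alternative large subunits of the rabconnectin complex, which helps V1 and V0 to join, and they moved in opposite directions. Dmxl1 fell from 187, 193, 173 and 169 CPM in Control to 149, 147, 157 and 136 CPM in So(d18:1) (log2 fold change -0.29, adjusted p = 0.000850). Dmxl2 rose from 261, 268, 296 and 295 CPM to 419, 349, 469 and 387 CPM (log2 fold change 0.54, adjusted p = 0.00250). Neither gene overlapped between the groups, and the difference between the 2 changes was not tested. Oxr1, a TLDc protein whose family binds the pump, had a log2 fold change of -0.19 (adjusted p = 0.00919).

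Among lysosomal channels and nutrient transporters, the latter not all confined to the lysosome, 3 of 13 (23.1%) fell, against 5.07% of all tested genes. Npc1, the cholesterol exporter of the lysosome, had a log2 fold change of -0.31 (adjusted p = 0.000230). Clcn7, the chloride-proton exchanger that works beside the V-ATPase, had a log2 fold change of -0.19 (adjusted p = 0.00478). Slc3a2, the heavy chain of amino acid transporters, had a log2 fold change of -0.22 (adjusted p = 0.0147). The call of Slc3a2 was lost without Control 4 (adjusted p = 0.0544) or So(d18:1) 2 (0.0642). Of 8 mTORC1 substrates 2 (25.0%) were called, beside 8.94% of all tested genes. Lpin1, a phosphatidate phosphatase, fell (log2 fold change -0.22, adjusted p = 0.0104) and Eif4ebp1, a brake on translation, rose (log2 fold change 0.20, adjusted p = 0.0467). The call of Eif4ebp1 was lost without Control 1, 2 or 4 or So(d18:1) 1, 2 or 4, with adjusted p from 0.0577 to 0.128, and under upper-quartile scaling, a floor of 10 counts in every library and limma-voom, with adjusted p up to 0.0602.

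Of 17 genes for lysosomal membrane proteins and hydrolases known as TFEB targets, 2 (11.8%) were called, beside 8.94% of all tested genes. Their median log2 fold change was -0.055 and that of all genes 0.004. Glb1, the lysosomal beta-galactosidase, rose (log2 fold change 0.15, adjusted p = 0.0471). The call of Glb1 was lost without any single library except So(d18:1) 3, with adjusted p from 0.0569 to 0.157, and under upper-quartile scaling, a floor of 10 counts in every library and limma-voom, with adjusted p up to 0.0732. Lamp1 and Lamp2, the main membrane proteins of the lysosome, both had a log2 fold change of 0.01 (adjusted p of 0.882 and 0.949). The other lists were 8 autophagy genes under TFEB, 13 regulators of the Rag GTPases, 6 amino acid sensors, 11 partners of mTOR, 9 regulators of TFEB and its family, and 2 further V-ATPase subunits. Of these 49 genes edgeR called 0, DESeq2 3 and limma-voom 2. By edgeR 10 of the 49 had an unadjusted p under 0.05, beside 3393 of all 14514 tested genes. Npc1 overlaps its neighbours over 601 bases on the opposite strand, and Glb1 shares 165 bases with Tmppe on its own strand.

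**Figure D5:**
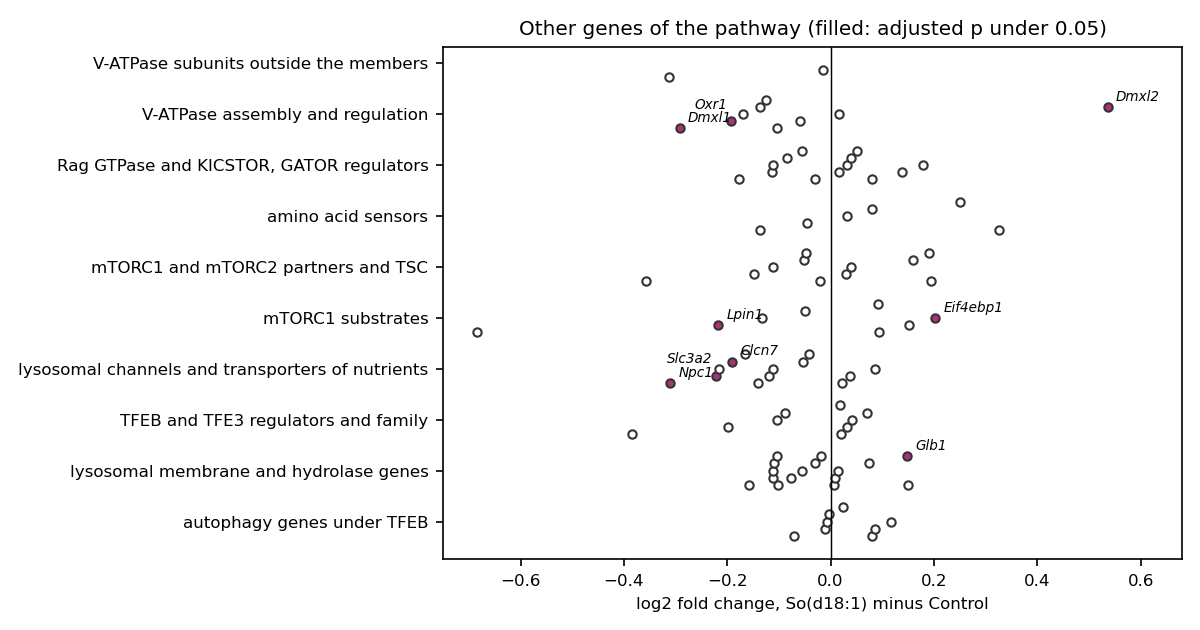
Log2 fold change (x axis, So(d18:1) minus Control) of 95 of the 96 tested pathway genes outside the members, 1 point a gene, in rows by function; filled and named points have an adjusted p under 0.05. The 9 called genes shown run from Npc1 at -0.31 to Dmxl2 at 0.54, and no row lies wholly on one side except the 2 V-ATPase subunits at -0.31 and -0.02.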

How the data were processed

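RNA-seq of 4 Control and 4 So(d18:1) BMDM libraries was analysed. Per the submitters' processing notes, the authors used Trim Galore 0.6.7 for trimming, HISAT2 2.2.1 for alignment (build mm10) and featureCounts 2.0.1 for counting, and they deposited whole-number counts per Ensembl gene with a gene length. The strand setting and the handling of reads with several matches are not given in the sources used here. Without strand, reads of overlapping genes cannot be told apart, and reads of pseudogenes may be split or dropped.

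Genes passing filterByExpr were scaled by TMM and tested with edgeR 4.0.16 (R 4.3.3) by the robust quasi-likelihood F test, with Benjamini-Hochberg adjustment over 14514 genes. The script was tested on simulated data. Totals of 17748397 to 26088609 counts and 4 libraries a group set the precision. Replicates of 1 group differed by more than sampling noise (chi-square per gene 2.75 to 11.9 over 12 pairs), so none was merged. SE is the absolute log2 fold change over the square root of F. Levels between genes are CPM per kb of the deposited length, which equals the union of GENCODE M21 exons for 36 of 37 members (not Fnip2). Overlaps and shared 50-base words come from the same annotation, and coordinates are GRCm38. Promoters are from RefSeq (GRCm38.p6). Figures were drawn with matplotlib 3.10.9.

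All members are named, with library values for those called, those without overlap, Tfeb, Tfe3, Mtor and Gpnmb, and for other pathway genes those called, by p and at most 12, plus Tcirg1. Of 106 pathway names 103 genes were matched. One called pathway gene counts in the totals but is not reported here. The members and lists were chosen with earlier results of these data known. Alternatives were other scalings and filters, DESeq2 1.42.0, limma-voom with limma 3.58.1, a replicate block and leaving out each library.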

Additional observations from a re-analysis of the deposited data

Results flagged for a closer look

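In 4 of 74 groups of 4 libraries, 1 library lay apart from its fellows on the log2 CPM scale by Dixon's ratio (gap over range, above the 95% critical value), where chance alone gives about 3.70. Flcn in So(d18:1) had a ratio of 0.874, with So(d18:1) 4 at 6.93 and the others at 7.11 to 7.14, and the gene stayed called without that library. Lamtor2 in Control had a ratio of 0.877, with Control 4 at 5.53 against 5.38 to 5.39. Atp6v0e in Control had a ratio of 0.844, with Control 2 at 6.40 against 6.53 to 6.55. Lamtor1 in So(d18:1) had a ratio of 0.833, with So(d18:1) 4 at 7.12 against 7.01 to 7.03.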

How the results depend on the processing

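The calls of Atp6v0a1, Rragc, Rragd, Flcn, Fnip2, Mitf and Gpnmb held under every alternative run, while those of Atp6v0d2, Atp6v1c1 and Lamtor4 each failed without several single libraries. Of 592 recomputed member values 548 kept direction and side of the threshold, 20 lost the call, 6 gained it and 18 changed sign, all of the last near 0. The number of called members was 9 to 12 across settings and 7 to 9 without 1 library. Fnip1 passed under upper-quartile scaling (adjusted p = 0.0384), a floor of 10 counts in every library (0.0417) and DESeq2 (0.0333), and Atp6v1a under DESeq2 (0.0328); Atp6v0d2 was lost under limma-voom (0.0504).

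Called pathway genes outside the members numbered 16 with no filter on low counts, 16 with DESeq2 and 7 to 12 without 1 library. At a fold change of at least 2, 0 members were called. An unadjusted p under 0.05 was found for 14 of the 37 members, beside 3393 of all 14514 tested genes. All called genes numbered 815 to 1370 without 1 library, the lowest without So(d18:1) 2, and 1723 with no filter. Under upper-quartile scaling the sign turned for Atp6ap1 (-0.0057) and Lamtor3 (-0.0025), and Tfe3 turned under library totals alone (0.0048) and with no filter (0.0025). Without 1 library, log2 fold changes ranged from -0.0049 to 0.0485 for Atp6v0c, -0.0088 to 0.0535 for Atp6v0e, -0.0433 to 0.0709 for Atp6v1f, -0.0104 to 0.0247 for Atp6ap1, -0.0184 to 0.0352 for Lamtor3, -0.0131 to 0.0121 for Tfe3 and -0.0599 to 0.0356 for Tcirg1. The cause was not tested.

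The deviations of same-numbered libraries correlated weakly (r of -0.00351, 0.100, 0.0331 and 0.00909). Whether the numbers pair the libraries cannot be settled from this, since no source says how the replicates were made. With a replicate block 11 members, 17 other pathway genes and 1784 genes in all were called, Fnip1 among them (adjusted p = 0.0323); 2 of 4 So(d18:1) libraries correlated best with their own number.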
